A study of Mus musculus with 9 samples.

Results

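The 8 genes *Msr1*, *Marco*, *Scarb1*, *Cd68*, *Olr1*, *Scarf1*, *Cxcl16* and *Lrp1*, which encode scavenger receptors of several structural classes, were measured in cells sorted from blood and from the brain after ischemic stroke. They were taken by symbol from a list of receptors and are 8 of the 53801 genes in the count files, 25402 of which had a count in at least 1 library. All mice were male C57BL/6J animals aged 9 weeks. Stroke mice had permanent focal ischemia by occlusion of the distal middle cerebral artery on the left together with the common carotid artery of that side (dMCAO), and sham mice had a sham operation. Monocytes and macrophages were sorted as CD11c-Ly6G-CD11b+CD45high cells, and the bulk RNA of each sort was sequenced. There were 3 libraries of sham blood and 3 of stroke blood, each from 1 mouse, and 3 of stroke brain, each pooled from 5 mice. Stroke blood and brain were collected 5 days after dMCAO. The day of sham blood is not given in the sources used here. Total counts lay between 18475118 and 22623578 per library.

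Scavenger receptors are surface proteins that bind modified lipoproteins, dying cells, microbes and other polyanionic ligands. They share binding habits and not ancestry, so the classes differ widely in structure. On macrophages they take ligands up for lysosomal breakdown and feed cholesterol into the cell. In the ischemic brain, phagocytes meet dead cells and myelin debris, and these receptors belong to the equipment with which such material is bound. Class A receptors (*Msr1*, *Marco*) are collagenous trimers. *Scarb1* is a class B lipoprotein receptor with 2 membrane spans, *Cd68* a heavily glycosylated endosomal protein and *Olr1* a C-type lectin for oxidized low-density lipoprotein (LDL). *Scarf1* carries epidermal growth factor-like repeats. *Cxcl16* is a membrane-bound chemokine that also binds oxidized lipoprotein and phosphatidylserine. *Lrp1* is a giant member of the LDL receptor family.

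The sort was checked against marker lists before the receptors were read. Levels are CPM (counts scaled to library size) after normalization with the trimmed mean of M values (TMM) over all 9 libraries. The pan-leukocyte gene *Ptprc* was between 938 and 1748 CPM and *Csf1r* between 2187 and 3701 CPM in the 9 libraries, and *Itgam* between 136 and 234 CPM. The 8 monocyte and macrophage markers summed to 128471, 102832 and 91256 CPM in sham blood, 102893, 111894 and 105560 CPM in stroke blood, and 41337, 45706 and 47760 CPM in the brain. *Lyz2* held most of each sum. Of the 8, none was upregulated in the brain. *Ly6c2* and *Lyz2* were downregulated against stroke and sham blood, beside 7.86% and 3.67% of all genes tested.

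Other markers differed by tissue. All 9 microglia markers were upregulated in the brain against both blood groups, beside 13.1% and 9.75% of all genes tested, with sums of 1222, 1829 and 3436 CPM in the brain and from 145 to 210 CPM in blood. Of the 9, *Sall1*, *Siglech*, *Olfml3*, *Sparc* and *Slc2a5* had fewer than 3 libraries of either blood group at the cutoff of the count filter. Such genes are tested because of the brain libraries, so their direction was set by the filter. *Sall1* had no count in blood and was at 6.62, 6.24 and 20.5 CPM in the brain. Dendritic cell markers, led by *Cd209a* in the brain, summed to 944, 727 and 709 CPM in the brain and from 108 to 359 CPM in blood. Against stroke blood 7 of the 8 tested were upregulated, and against sham blood 4 of 8, although the gate excluded CD11c. *Zbtb46*, *Clec9a* and *Fscn1* of this list also passed the filter because of the brain libraries. Of the neutrophil markers 7 of 8 tested were upregulated against stroke blood and 4 of 9 against sham blood, with brain sums of 1176, 778 and 1268 CPM. Blood sums ran from 48.2 CPM to 1750 CPM in sham blood replicate 3, above every brain library. *Mpo* passed the filter because of the brain libraries in both comparisons, and *Camp*, *Ltf* and *Ngp* against stroke blood. *Ly6g* stayed between 0 and 0.82 CPM in all libraries. Erythroid markers fell to sums of 3.77, 11.7 and 13.7 CPM in the brain from 14197 CPM or more in stroke blood. Platelet markers summed to 34.7, 58.1 and 79.0 CPM in the brain and from 340 to 418 CPM in stroke blood. *Pf4*, which is also on the list of border-associated macrophage markers, held 31.7, 53.2 and 74.0 CPM of the brain sums. *Ppbp* was the most abundant in stroke blood. Here 4 of the 7 platelet and 4 of the 6 erythroid markers passed the filter because of the blood libraries.

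Of the neural markers, *Syt1* had no count in any library. Of the 4 tested, *Slc1a2* and *Ttr* were upregulated against stroke and sham blood, beside 13.1% and 9.75% of all genes tested. Both passed the count filter because of the brain libraries. *Ttr* was at 85.0, 13.9 and 41.1 CPM in the brain and without a count in blood. Against stroke blood 1 of the 4 was lower at an adjusted p below 0.05 (edgeR), within a log2 fold change of 1. At that adjusted p and any fold, 13.1% of all genes tested were lower. *Mbp*, the most abundant, was at 173, 133 and 117 CPM in the brain. It was at 259, 331 and 201 CPM in stroke blood and 261, 283 and 169 CPM in sham blood.

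The sham blood group was the least even. Sham blood replicate 1 had 18.7 CPM of platelet and 1261 CPM of erythroid transcripts, where the other sham libraries had 460 and 689 CPM of platelet and 34213 and 31280 CPM of erythroid transcripts. Brain replicate 1 had the lowest microglial sum of its group. In bulk RNA, fewer cells of a type and less RNA per cell cannot be told apart. The part of these other cell types in the receptor results was not tested.

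**Figure D1:**
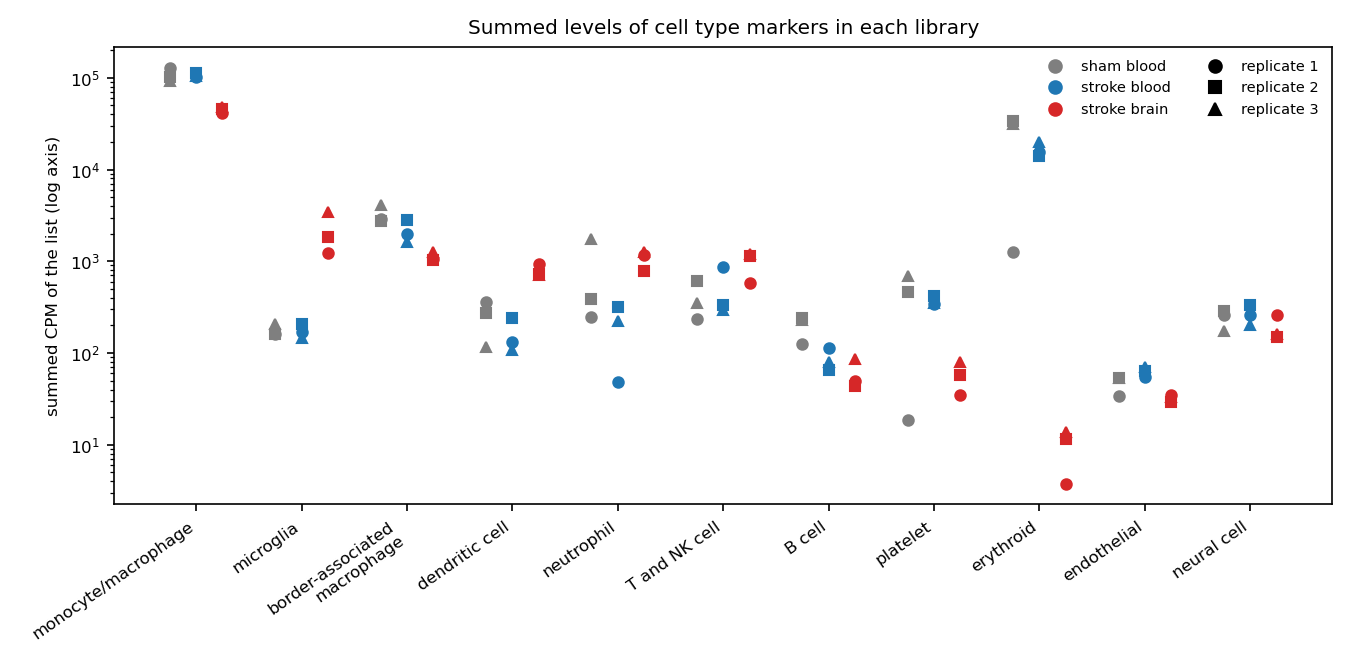
Summed TMM-normalised CPM of each marker list (horizontal axis) in each of the 9 libraries, on a log axis. Colours are groups and shapes are replicates. Microglial sums are highest in the 3 brain libraries, erythroid sums are lowest there, and sham blood replicate 1 lies below the other blood libraries for platelet and erythroid markers.

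Lengths differ among the 8 transcripts, so levels were compared between genes as CPM per kb of summed exons. *Cd68* led every group, at 789 ± 70.1 CPM per kb in sham blood, 819 ± 125 in stroke blood and 1191 ± 150 in the brain (SD, n = 3). It made up 85.9%, 84.2% and 86.0% of the summed length-scaled level of the 8 genes. In sham blood, *Msr1* (46.2 CPM per kb), *Scarb1* (43.9) and *Lrp1* (32.8) followed, and the libraries of each neighbour overlapped. *Scarf1* (3.28) stood below these, and *Cxcl16* (1.66) and *Olr1* (1.34) overlapped at the bottom.

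In stroke blood, *Scarb1* (55.3 CPM per kb), *Lrp1* (50.9) and *Msr1* (39.3) overlapped from neighbour to neighbour, and *Scarf1* (4.54), *Cxcl16* (2.15) and *Olr1* (1.65) lay lower. *Cxcl16* and *Olr1* overlapped here too. In the brain, *Cxcl16* moved from the sixth place of both blood groups to the second, at 80.5 ± 6.62 CPM per kb (SD, n = 3), below *Cd68* and above *Msr1* (50.1) without overlap. Its share of the summed level of the 8 genes was 5.81% in the brain, 0.221% in stroke blood and 0.181% in sham blood. *Scarb1* (28.1) and *Lrp1* (26.7) overlapped in the brain, as did *Scarf1* (4.26) and *Olr1* (3.86). With the longest transcript in place of summed exons, *Cxcl16* (91.7, 96.5 and 82.0 CPM per kb) was again second in the brain by its mean. It then overlapped *Msr1* (73.6, 102 and 86.5) and *Scarb1* (89.8, 68.2 and 73.8). *Scarb1* and *Lrp1* (39.9, 26.4 and 29.1) no longer overlapped in the brain. On that scale *Scarb1*, *Msr1* and *Lrp1* followed *Cd68* in the same order in both blood groups.

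**Figure D2:**
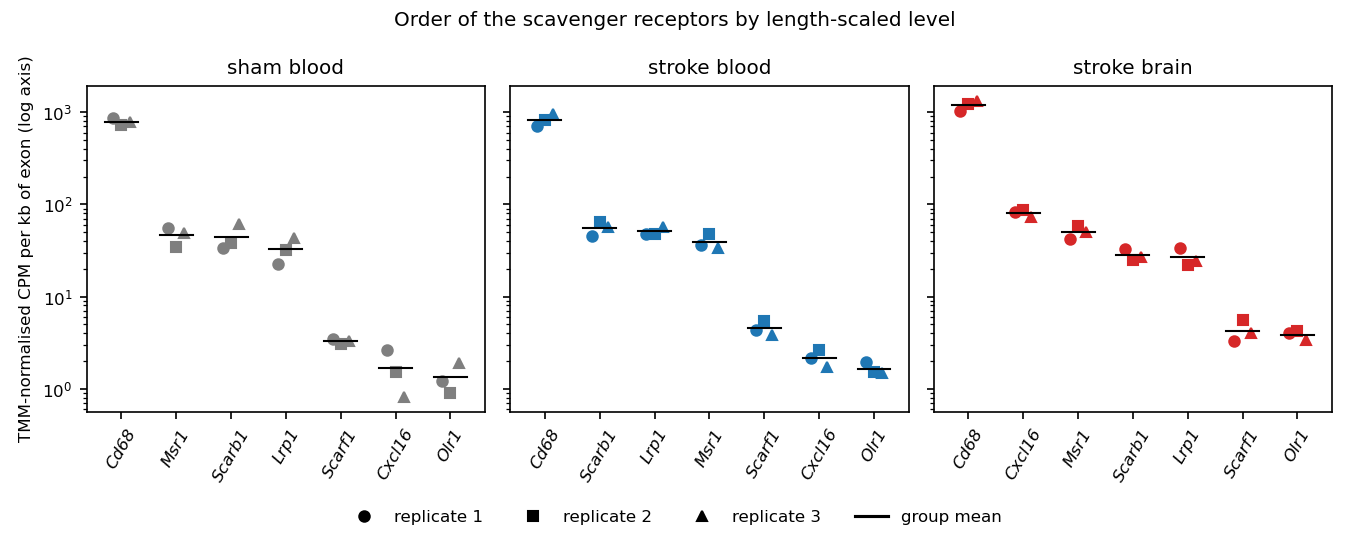
TMM-normalised CPM per kb of summed exons (log axis) of 7 scavenger receptor genes in each group, ordered by the group mean (line). Points are the 3 libraries; *Marco*, which had counts in 1 library, is not drawn. *Cxcl16* lies in sixth place in both blood groups and in second place in the brain.

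The brain and blood sorts of stroke mice were compared first. These are separate sorts, and the brain sort also held microglial transcripts. *Cxcl16* and *Olr1* were upregulated in the brain sort, by 37.9-fold and 2.39-fold. *Scarb1* and *Lrp1* were lower by 1.93-fold and 1.87-fold and *Cd68* was higher by 1.48-fold, each at an adjusted p below 0.05 but under the fold threshold. *Msr1* and *Scarf1* did not pass the test, and *Marco* had too few counts to be tested. Genes were called differentially expressed (DEGs) when the adjusted p was below 0.05 (edgeR's quasi-likelihood test, Benjamini-Hochberg) and the log2 fold change beyond 1 in either direction.

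Of the 7 receptors tested, 2 were upregulated and 0 downregulated as DEGs, where 13.1% of the 13189 genes tested were higher and 7.86% lower. At an adjusted p below 0.05 and any fold, 3 receptors were higher and 2 lower. In all genes tested the shares were 17.5% higher and 13.1% lower. For 5 of the 7 the brain and stroke blood libraries did not overlap, as for 47.9% of all genes tested. The median log2 fold change of the 7 was 0.38, and that of all genes tested 0.06.

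RefSeq promoter sequences of the GRCm38.p6 build were at hand for 4 of the 8 genes: *Marco*, *Olr1*, *Cd68* and *Lrp1*. *Msr1*, *Scarb1*, *Scarf1* and *Cxcl16* had no entry. Those of *Olr1*, *Cd68* and *Lrp1* are shown because these genes passed the test in the brain, the first pair higher and the last lower. Each is the 250 bases before the start site, 5′ to 3′ on the gene's own minus strand, and none overlaps an annotated gene. *Olr1* is at chr6:129507166-129507415, *Cd68* at chr11:69666171-69666420 and *Lrp1* at chr10:127621149-127621398. In the annotation used for gene positions *Cd68* ends at 69666153, so its window and distances follow a different start site. Capitals mark matches on either strand to GAGGAA (a core bound by PU.1), TGACTCA (AP-1), GGGCGG (the GC box) and TATAAA (the TATA box).
Olr1: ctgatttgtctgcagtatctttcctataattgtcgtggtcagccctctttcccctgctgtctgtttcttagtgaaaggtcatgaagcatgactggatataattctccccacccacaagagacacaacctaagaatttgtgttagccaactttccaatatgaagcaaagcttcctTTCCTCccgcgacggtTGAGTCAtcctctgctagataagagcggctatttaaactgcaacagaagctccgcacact
Cd68: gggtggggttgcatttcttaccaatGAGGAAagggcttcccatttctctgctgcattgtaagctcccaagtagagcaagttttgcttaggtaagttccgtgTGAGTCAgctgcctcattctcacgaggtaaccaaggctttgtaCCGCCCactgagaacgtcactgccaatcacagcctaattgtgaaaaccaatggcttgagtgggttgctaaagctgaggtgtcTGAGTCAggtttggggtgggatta
Lrp1: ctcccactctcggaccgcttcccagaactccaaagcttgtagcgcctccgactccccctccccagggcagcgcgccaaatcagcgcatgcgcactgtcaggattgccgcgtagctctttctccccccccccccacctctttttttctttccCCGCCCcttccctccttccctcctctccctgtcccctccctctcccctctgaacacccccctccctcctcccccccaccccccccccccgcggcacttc

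The 3 windows differed in these letters. *Olr1* had 1 PU.1-type core, with its first base 76 bases before the start, and 1 AP-1 match at 60 bases. *Cd68* had 1 PU.1-type core at 225 bases, AP-1 matches at 149 and 24 bases and a GC box at 106 bases. *Lrp1* had a GC box at 99 bases and no match to the other 3 motifs. No matches overlapped each other. Of all 32851 promoters in the table, 23.3% held the PU.1-type core in the same window, 4.46% the AP-1 letters, 32.7% the GC box and 12.4% the TATA box. G and C made up 45.2% of the *Olr1* window, 49.2% of *Cd68* and 67.2% of *Lrp1*, beside a median of 52.4% over all promoters. Such matches describe sequence only. PU.1 itself, encoded by *Spi1*, is described with the regulators.

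*Cxcl16* had the largest difference between tissues of the 7 receptors tested. It encodes a chemokine head on a mucin stalk, which acts as a scavenger receptor at the surface and, once shed, as the ligand of CXCR6. *Cxcl16* was at 247, 261 and 221 CPM in the 3 brain libraries, at 6.46, 7.89 and 5.15 CPM in stroke blood and at 8.03, 4.57 and 2.45 CPM in sham blood. Every brain library lay far above every blood library, and both blood groups overlapped. Against stroke blood the log2 fold change was 5.25 ± 0.22 (SE, adjusted p = 1.31e-06, edgeR), with all 3 brain libraries higher. Of the 13189 genes tested, 235 had a larger log2 fold change. The brain libraries agreed closely, with a coefficient of variation of 8.23%. Brain replicate 3 had the highest microglial sum and the lowest *Cxcl16* of the 3, and the part of microglial RNA in *Cxcl16* was not tested.

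*Cxcl16* lies on chromosome 11 (70453983 to 70459984, minus strand, GRCm38), and its exons overlap those of *Zmynd15* on the opposite strand. No strand setting is given for the counting, so reads of the pair may not be told apart in the shared part. *Zmynd15* had 212, 255 and 307 counts in the brain and at most 4 in a blood library, beside 5122, 6261 and 5084 counts of *Cxcl16* in the brain. The low partner counts do not show how shared reads were assigned.

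*Olr1* encodes LOX-1, the lectin-like receptor for oxidized LDL. It was at 14.4, 15.0 and 11.9 CPM in the brain, 6.91, 5.45 and 5.27 CPM in stroke blood and 4.32, 3.25 and 6.80 CPM in sham blood. All brain libraries were above all blood libraries, although the level in the brain remained low, with 274 to 361 counts per library. The log2 fold change against stroke blood was 1.25 ± 0.26 (SE, adjusted p = 0.00639, edgeR). The gene lies on chromosome 6 (129485244 to 129507165, minus strand).

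*Cd68*, a late endosomal and lysosomal glycoprotein widely used to stain phagocytes, was the most abundant of the 8 genes. It was at 1292, 1536 and 1664 CPM in the brain, 878, 1020 and 1192 CPM in stroke blood and 1086, 912 and 976 CPM in sham blood. The lowest brain library lay above the highest stroke blood library. Among all genes with counts in the brain group it ranked 62nd by mean CPM, against 137th in stroke blood and 125th in sham blood. The log2 fold change against stroke blood was 0.56 ± 0.17 (SE, adjusted p = 0.0315, edgeR), below the DEG threshold. With 1 library left out the log2 fold change lay between 0.43 and 0.66, and the adjusted p was 0.151, 0.0798, 0.0890 and 0.118 without stroke blood replicate 1, stroke blood replicate 2, brain replicate 2 and brain replicate 3, and 0.0906 with upper quartile scaling (log2 fold change 0.42). Within the brain, *Cd68* had the same order of libraries as the microglial sum, and the part of microglial RNA in it was not tested.

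*Scarb1* encodes SR-B1, which takes up cholesteryl esters from high-density lipoprotein and moves free cholesterol out of cells. It was at 278, 211 and 228 CPM in the brain, 386, 546 and 480 CPM in stroke blood and 282, 322 and 514 CPM in sham blood. On the TMM scale all brain libraries were below all blood libraries, and the sham libraries spread most. Brain replicate 1, at 278 CPM, was just under sham blood replicate 1, at 282 CPM. Their TMM factors were 1.10 and 0.969, so their order turns without TMM scaling. The log2 fold change against stroke blood was -0.95 ± 0.18 (SE, adjusted p = 0.00462, edgeR). It passed the fold threshold with upper quartile scaling, at -1.10, and without stroke blood replicate 1, at -1.10, or brain replicate 1, at -1.08.

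*Lrp1* encodes an endocytic receptor for apolipoprotein E, proteases and their inhibitors, which also takes part in the uptake of apoptotic cells with calreticulin. It was at 594, 393 and 434 CPM in the brain, 842, 850 and 1015 CPM in stroke blood and 404, 569 and 768 CPM in sham blood. The 3 stroke blood libraries were the highest of the 9, and the brain and sham libraries overlapped. The log2 fold change of brain against stroke blood was -0.90 ± 0.19 (SE, adjusted p = 0.00715, edgeR). It was -1.05 with upper quartile scaling and -1.10 without brain replicate 1, past the fold threshold in both.

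*Msr1*, the macrophage class A receptor for acetylated LDL, was abundant in all groups and did not pass the test. It was at 268, 372 and 314 CPM in the brain, 229, 305 and 213 CPM in stroke blood and 350, 216 and 314 CPM in sham blood. The 3 groups overlapped. The log2 fold change against stroke blood was 0.38 ± 0.19 (SE, adjusted p = 0.162, edgeR). *Marco*, the other class A member, is known from marginal zone and alveolar macrophages. It had 5 counts in brain replicate 2 (0.208 CPM) and no count in the other 8 libraries. A count of 0 allows up to 3 counts, or 0.131 to 0.176 CPM in those 8 libraries, for counting error only.

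*Scarf1*, first described on endothelium as a receptor for acetylated LDL and later as a receptor for apoptotic cells through C1q, was low. It was at 9.52, 15.9 and 11.5 CPM in the brain, 12.5, 15.7 and 11.1 CPM in stroke blood and 9.99, 8.81 and 9.58 CPM in sham blood. Brain and stroke blood overlapped, with a log2 fold change of -0.07 ± 0.27 (SE, adjusted p = 0.869, edgeR). Its sign turned to 0.08 with library size as the only scaling, to 0.08 without brain replicate 1 and to 0.04 without stroke blood replicate 2.

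**Figure D3:**
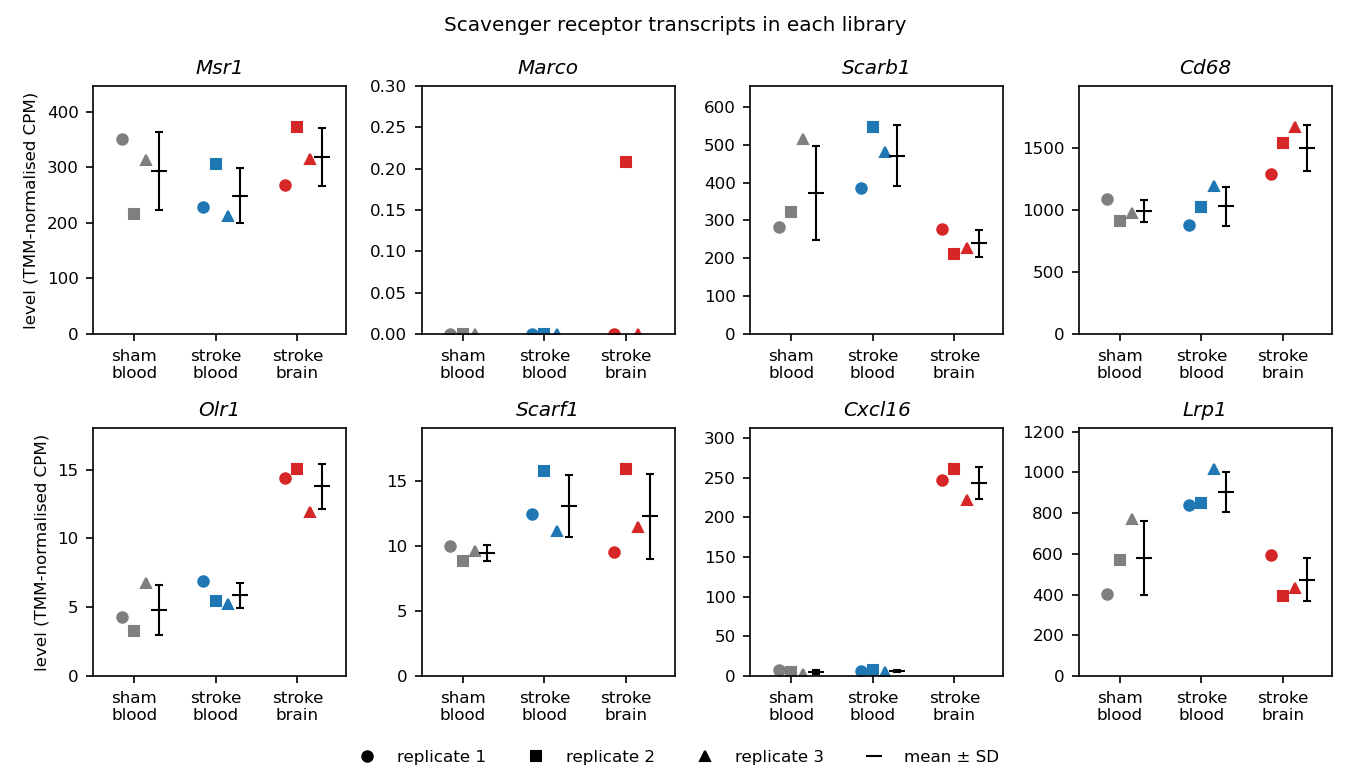
TMM-normalised CPM of the 8 scavenger receptor genes in each library (linear axes from 0, 1 panel a gene). Points are libraries by replicate, and bars give mean ± SD (n = 3) except for *Marco*. The 3 brain libraries lie above all blood libraries for *Cxcl16*, *Olr1* and *Cd68*. They lie below all of them for *Scarb1*, narrowly so for sham blood and only with TMM scaling.

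Stroke and sham blood were compared to see whether the receptors differed within blood. No receptor was called: 0 of the 7 tested were DEGs with edgeR and 0 with DESeq2, and 1, *Lrp1*, had an unadjusted p below 0.05. In all 12664 genes tested, 1 was a DEG (0.0079%), and 1581 had an unadjusted p below 0.05. That gene was *Serpinb10*, named after its values were seen, with a log2 fold change of 1.84 ± 0.17 (SE, adjusted p = 0.0231, edgeR). Its call was lost without sham blood replicate 2 (adjusted p = 0.186), stroke blood replicate 1 (0.324), stroke blood replicate 2 (0.0527) or stroke blood replicate 3 (0.247), with values between 1.75 and 1.96 over all 6 libraries left out in turn. DESeq2 called 135 genes and edgeR without a filter on low counts 160. Libraries of the 2 blood groups did not overlap for 2 of the 7 receptors, *Lrp1* and *Scarf1*, and for 18.4% of all genes tested.

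*Lrp1* was higher in all 3 stroke blood libraries than in all 3 sham libraries, with a log2 fold change of 0.63 ± 0.23 (SE, adjusted p = 0.338, edgeR). Sham blood replicate 1, which had little platelet and erythroid RNA, was the lowest sham library for *Lrp1*. With 1 library left out the log2 fold change lay between 0.43, without that library, and 0.87, without sham blood replicate 3. The part of these other transcripts was not tested. *Scarf1* had a log2 fold change of 0.46 ± 0.22 (SE, adjusted p = 0.436, edgeR), between 0.28, without stroke blood replicate 2, and 0.56 with 1 library left out. The other 5 lay between -0.24 for *Msr1* and 0.36 for *Cxcl16*. With 1 library left out, *Msr1* lay between -0.44 and -0.09 and *Cxcl16* between 0.03 and 0.88. The median of the 7 was 0.33, and that of all genes tested -0.03.

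The brain sort was also set against sham blood, which gives a second baseline. This comparison shares the brain libraries with the first, so values are given side by side and their likeness is no added support. *Cxcl16* was upregulated with a log2 fold change of 5.61 ± 0.42 (SE, adjusted p = 0.000343, edgeR), beside 5.25 against stroke blood. *Olr1* was upregulated by 1.54 ± 0.32 (SE, adjusted p = 0.0150, edgeR), beside 1.25. Without brain replicate 2 *Olr1* was at 1.47 with an adjusted p of 0.0522. *Cd68* was higher by 0.61 ± 0.15 (SE, adjusted p = 0.0253, edgeR), beside 0.56. With 1 library left out it lay between 0.53 and 0.70, and its adjusted p was 0.0873, 0.0729, 0.0847 and 0.0985 without sham blood replicate 2, sham blood replicate 3, brain replicate 2 and brain replicate 3.

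The receptors that were lower than in stroke blood did not pass against sham blood. *Scarb1* had a log2 fold change of -0.63 ± 0.24 (SE, adjusted p = 0.109, edgeR), beside -0.95. *Lrp1* had -0.28 ± 0.26 (SE, adjusted p = 0.488, edgeR), beside -0.90. With 1 library left out, *Scarb1* lay between -0.79 and -0.33 and *Lrp1* between -0.48 and -0.03. Whether the 2 baselines differ for these genes is the blood comparison itself, in which neither passed the test. *Scarf1* had 0.39 and *Msr1* 0.13, and neither passed. *Msr1* turned to -0.06 without sham blood replicate 2 and was at 0.0022 without brain replicate 2. *Scarf1* lay between 0.17, without brain replicate 2, and 0.54, without brain replicate 1. In total 2 of the 7 were upregulated and 0 downregulated, where 9.75% and 3.67% of the 13020 genes tested were. At an adjusted p below 0.05 and any fold, 3 were higher and 0 lower, where 12.1% and 7.68% of all genes tested were. Libraries did not overlap for 4 of the 7 and for 41.3% of all genes tested.

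**Figure D4:**
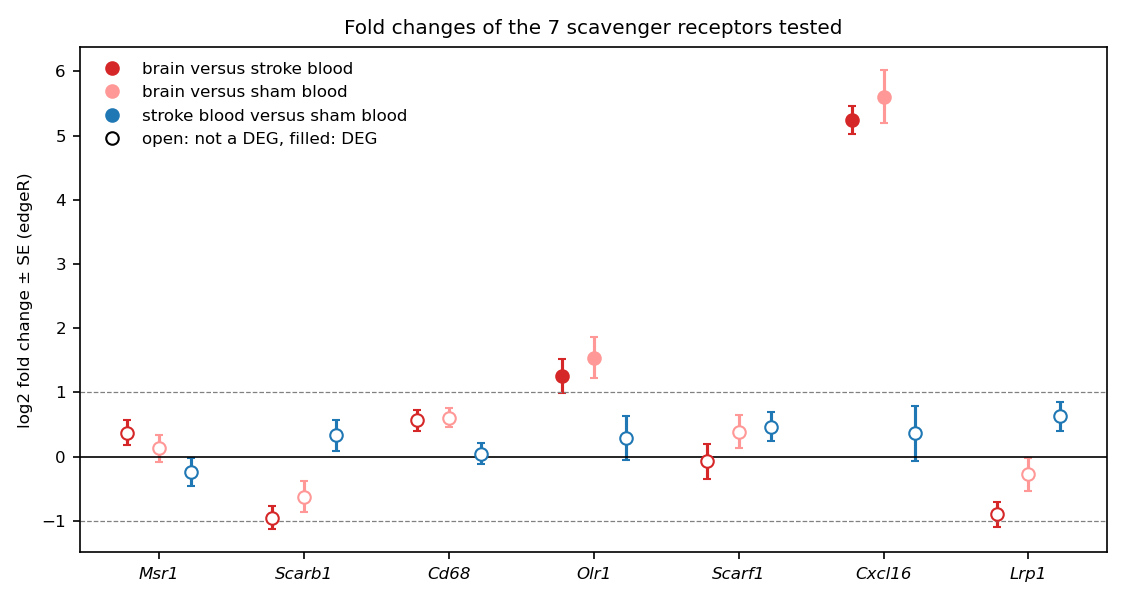
Log2 fold change ± SE of the 7 receptors tested (horizontal axis) in the 3 comparisons, from edgeR. Filled points are DEGs and dashed lines mark log2 fold changes of -1 and 1. *Cxcl16* and *Olr1* are the filled points in both brain comparisons, and no point of the blood comparison is filled.

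The wider family of scavenger receptors was read from a list of 17 further genes, 9 of which had enough counts to be tested in the brain comparisons. Against stroke blood 5 were upregulated and 0 downregulated, where 13.1% and 7.86% of all genes tested were, and the median log2 fold change of the 9 was 1.83 beside 0.06. Against sham blood 5 were upregulated and 0 downregulated, beside 9.75% and 3.67%, with a median of 2.28 beside 0.01. In both cases the 5 were *Stab1*, *Mrc1*, *Cd163*, *Cd36* and *Scarf2*. *Scarf2* passed the count filter because of the brain libraries, so its direction was set, and these counts and medians describe the list and no more. *Mrc1* and *Cd163* also stand on the list of border-associated macrophage markers, 4 of whose 6 tested genes were upregulated in the brain and 1, *F13a1*, downregulated. *Folr2* of that list passed the filter because of the brain libraries.

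*Stab1*, the class H receptor stabilin-1 of tissue macrophages and sinusoidal endothelium, had the largest difference of the 9. It was at 122, 117 and 186 CPM in the brain, 1.46, 1.39 and 3.80 CPM in stroke blood and 1.00, 1.27 and 1.50 CPM in sham blood. Brain and blood were far apart, with a log2 fold change of 6.04 ± 0.42 against stroke blood (SE, adjusted p = 2.56e-05, edgeR). Its exons overlap *Nt5dc2* on the other strand. *Mrc1*, the mannose receptor, was at 29.4, 63.5 and 85.6 CPM in the brain and between 2.62 and 11.9 CPM in blood. Its log2 fold change was 2.81 ± 0.40 (SE, adjusted p = 0.000981, edgeR). *Cd163*, the haptoglobin-hemoglobin receptor, was at 6.38, 17.1 and 20.0 CPM in the brain and between 2.02 and 4.62 CPM in blood, with a log2 fold change of 2.28 ± 0.46 (SE, adjusted p = 0.00552, edgeR). For both genes brain replicate 1, which had the lowest microglial sum, was the lowest brain library. The border-associated list, which holds both genes, summed to 1062, 1032 and 1276 CPM in the brain and was led by *F13a1*. The part of either cell type in *Mrc1* and *Cd163* was not tested. Against sham blood *Cd163* lost its call without sham blood replicate 2 (adjusted p = 0.0667), sham blood replicate 3 (0.0706), brain replicate 2 (0.0597) or brain replicate 3 (0.0619).

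*Cd36*, the class B receptor for oxidized LDL and long-chain fatty acids, was at 166, 139 and 146 CPM in the brain, 54.6, 50.6 and 23.9 CPM in stroke blood and 31.9, 38.4 and 18.7 CPM in sham blood. Brain libraries were above all blood libraries, and the log2 fold change against stroke blood was 1.83 ± 0.29 (SE, adjusted p = 0.00163, edgeR). It thus went the other way from *Scarb1* of the same class. *Scarf2*, a relative of *Scarf1*, was at 1.45, 1.50 and 2.92 CPM in the brain and at most 0.555 CPM in blood, with a log2 fold change of 2.91 ± 0.79 against stroke blood (SE, adjusted p = 0.0217, edgeR), and between 2.36 and 4.09 with 1 library left out. That call against stroke blood was lost without stroke blood replicate 2 (adjusted p = 0.0640), stroke blood replicate 3 (0.0962) or brain replicate 3 (0.0825). Against sham blood it was lost without sham blood replicate 2 (0.0674), sham blood replicate 3 (0.0622) or brain replicate 3 (0.0538).

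The other 4 tested did not pass in either brain comparison. *Clec7a*, the beta-glucan receptor, was at 680, 436 and 483 CPM in the brain and 746, 842 and 585 CPM in stroke blood. *Cd44*, the hyaluronan receptor, was at 756, 699 and 570 CPM in the brain and 876, 860 and 956 CPM in stroke blood. Lysosomal *Scarb2* lay between 153 and 217 CPM in the 9 libraries. *Colec12* was at 7.10, 7.16 and 15.9 CPM in the brain and between 3.72 and 10.6 CPM in blood, and DESeq2 called it against sham blood (log2 fold change 1.15, adjusted p = 0.0312), as did a single edgeR fit of all 9 libraries (1.16, adjusted p = 0.0421). The 8 genes not tested were *Scara3*, *Scara5*, *Asgr1*, *Megf10*, *Stab2*, *Cd163l1*, *Ager* and *Lrp2*, of which *Scara3* reached the highest level, 3.62 CPM in a brain library. Between the blood groups 0 of the 8 genes tested were DEGs with edgeR or DESeq2, and 2 had an unadjusted p below 0.05, beside 1581 of all 12664 genes tested.

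**Figure D5:**
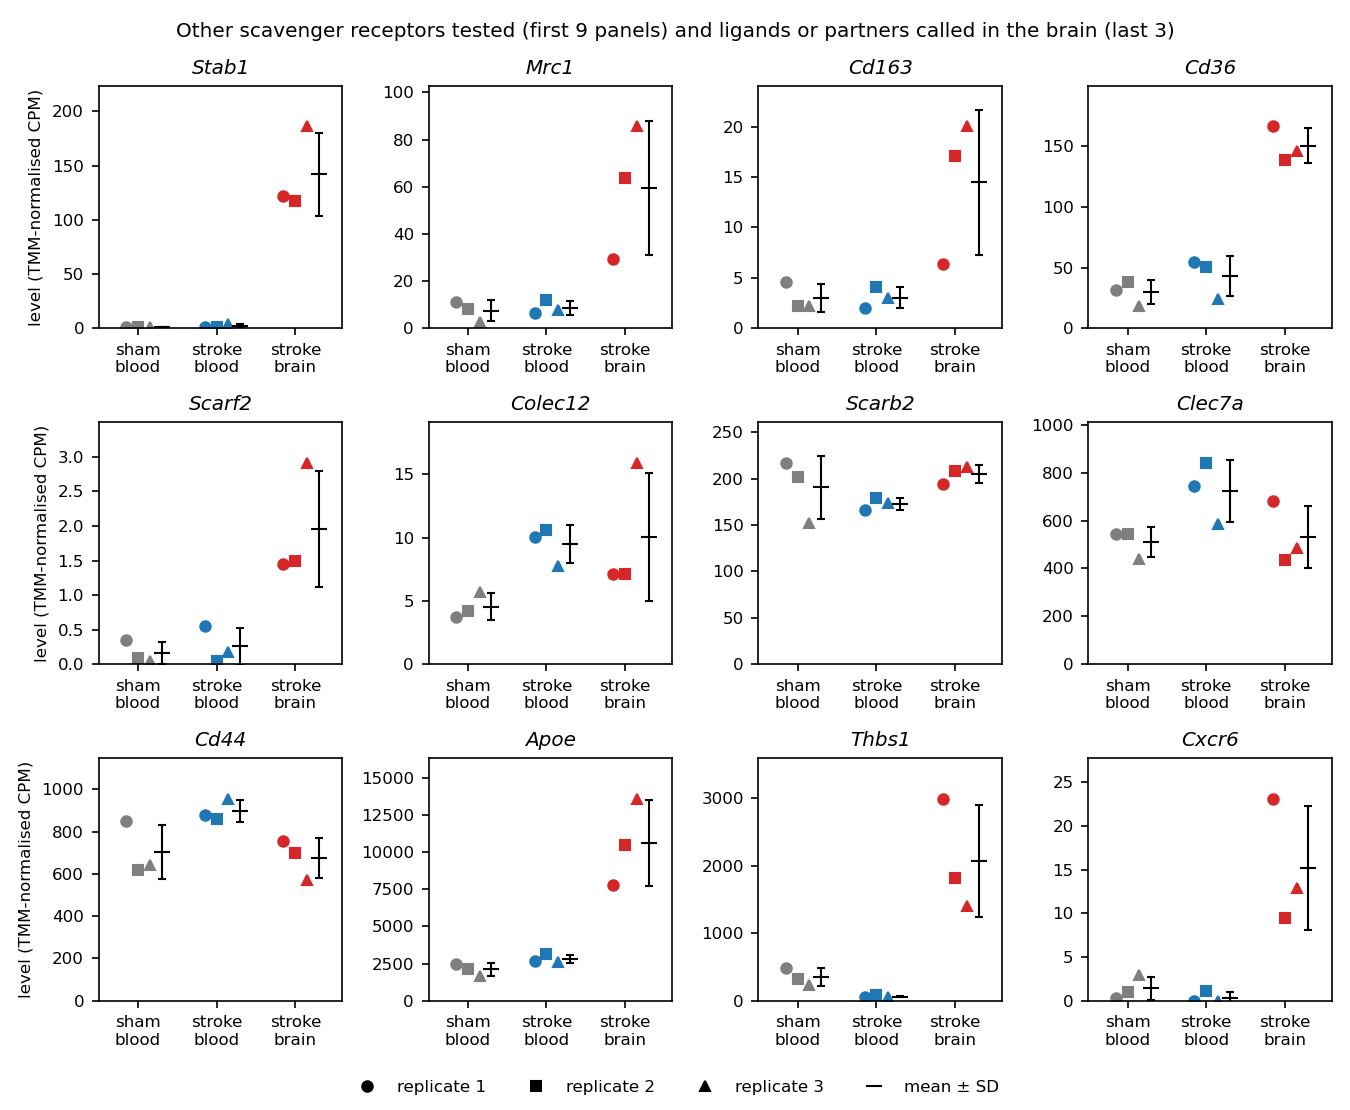
TMM-normalised CPM in each library (linear axes from 0) of the 9 other scavenger receptors tested and of the 3 ligands or partners called in the brain (*Apoe*, *Thbs1*, *Cxcr6*). Points are libraries by replicate, bars are mean ± SD (n = 3). *Stab1*, *Mrc1*, *Cd163*, *Cd36* and *Scarf2* are higher in every brain library than in every blood library.

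The LDL receptor family, to which *Lrp1* belongs, was read from 11 further genes, 10 of them tested in the brain comparisons. Against stroke blood 3 were upregulated and 0 downregulated, where 13.1% and 7.86% of all genes tested were. The same counts were found against sham blood, beside 9.75% and 3.67%. *Lrp12* was at 10.2, 9.99 and 13.5 CPM in the brain and at most 2.40 CPM in blood. *Lrp8*, the apolipoprotein E and reelin receptor, was at 7.20, 7.41 and 7.09 CPM and at most 1.35 CPM in blood, and *Lrp4* at 5.27, 6.66 and 7.88 CPM and at most 2.26 CPM. *Lrp8* in both comparisons, and *Lrp12* against stroke blood, passed the count filter because of the brain libraries, so their direction was set by it. These 3 upregulated genes were of low abundance, while *Lrp1* was between 393 and 594 CPM in the brain. The call of *Lrp8* was lost without stroke blood replicate 1 (adjusted p = 0.0594).

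*Lrpap1*, the receptor-associated protein that escorts *Lrp1* products through the endoplasmic reticulum, was higher at an adjusted p below 0.05 against stroke blood, under the fold threshold. It was at 321, 338 and 287 CPM in the brain and 212, 212 and 210 CPM in stroke blood. Its log2 fold change was 0.60 ± 0.14 (SE, adjusted p = 0.0106, edgeR). *Lrp5*, *Lrp6*, *Lrp10* and *Sorl1* did not pass. *Vldlr* had no count. Between the blood groups 0 of 9 were DEGs with edgeR or DESeq2, and 0 had an unadjusted p below 0.05, beside 1581 of all 12664 genes tested.

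Ligands and partners of the 8 receptors were read from a list of 13 genes, 8 of them tested in the brain comparisons. Against stroke blood 3 were upregulated, *Apoe*, *Thbs1* and *Cxcr6*, and 0 downregulated, where 13.1% and 7.86% of all genes tested were. The same 3 were upregulated against sham blood, beside 9.75% of all genes tested. *Cxcr6* passed the count filter because of the brain libraries in both comparisons, so its direction was set by it. *Apoe*, a ligand of *Lrp1* and other LDL receptor family members, was at 7811, 10468 and 13605 CPM in the brain, 2642, 3125 and 2636 CPM in stroke blood and 2478, 2153 and 1664 CPM in sham blood. The log2 fold change against stroke blood was 1.95 ± 0.22 (SE, adjusted p = 0.000288, edgeR). Its brain libraries had the same order as the microglial sum, whose part in it was not tested.

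*Thbs1*, thrombospondin 1, binds *Cd36* and *Lrp1* products. It was at 2990, 1820 and 1398 CPM in the brain, 53.8, 76.5 and 51.8 CPM in stroke blood and 488, 327 and 227 CPM in sham blood. The 3 groups were separate, and the log2 fold change of brain against stroke blood was 5.12 ± 0.34 (SE, adjusted p = 2.24e-05, edgeR). Between the blood groups it was -2.52 ± 0.30 (SE, adjusted p = 0.0806, edgeR). That difference was called with DESeq2 (adjusted p = 3.40e-15), without a filter on low counts (8.05e-09), and without sham blood replicate 1 (0.0117) or sham blood replicate 3 (0.0291). Its exons overlap the annotated gene *Gm29233* on the other strand.

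The receptor and the sheddases of *Cxcl16* were read in the same bulk libraries. *Cxcr6*, the receptor for the soluble chemokine, was at 23.1, 9.45 and 12.9 CPM in the brain, 0, 1.05 and 0 CPM in stroke blood and 0.301, 1.04 and 2.90 CPM in sham blood. It passed with a log2 fold change of 5.37 ± 1.00 against stroke blood (SE, adjusted p = 0.00384, edgeR). All 22 counts of that baseline came from stroke blood replicate 2, and with 1 library left out the value lay between 4.78 and 11.3, the highest without that replicate. The call against sham blood was lost without sham blood replicate 2 (adjusted p = 0.0611). *Cxcr6* is known from T and natural killer cells, whose 8 markers summed to 583, 1141 and 1191 CPM in the brain, from 293 to 858 CPM in stroke blood and from 235 to 612 CPM in sham blood. *Gzma* was the most abundant of these in each library. Of the 8, *Cd3d* and *Cd3g* were upregulated against stroke blood, beside 13.1% of all genes tested. *Nkg7* was upregulated against sham blood, beside 9.75%. The gate was set on CD11b+CD45high cells, and the part of T and natural killer cells in *Cxcr6* was not tested.

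*Adam10*, which sheds *Cxcl16* and *Lrp1* products, was at 231, 241 and 226 CPM in the brain, 103, 151 and 116 CPM in stroke blood and 178, 154 and 153 CPM in sham blood. Its log2 fold change against stroke blood was 0.94 ± 0.17 (SE, adjusted p = 0.00373, edgeR), just under the fold threshold. It was 1.09 with library size as the only scaling and 1.07 without stroke blood replicate 2, past the threshold in both. *Adam17* was at 159, 203 and 203 CPM in the brain and 103, 171 and 117 CPM in stroke blood, and did not pass (adjusted p = 0.0738, edgeR). *Calr* and *Hmgb1* did not pass either.

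*Lpl*, lipoprotein lipase, was at 103, 63.1 and 103 CPM in the brain, 89.0, 226 and 102 CPM in stroke blood and 32.0, 40.4 and 73.3 CPM in sham blood. Its highest brain library was below the highest stroke blood library, and it did not pass between brain and stroke blood. Between the blood groups its log2 fold change was 1.51 ± 0.41 (SE, adjusted p = 0.285, edgeR), and it was called with DESeq2 (adjusted p = 0.00525) and without a filter on low counts (0.00213). Against sham blood the brain call appeared without sham blood replicate 3 (log2 fold change 1.31, adjusted p = 0.0331). *Plat*, *A2m*, *Gulp1* and *Pdzk1* had too few counts to be tested, with at most 6.72 CPM. With edgeR, 0 of the 8 tested were DEGs between the blood groups and 4 had an unadjusted p below 0.05, beside 1581 of all 12664 genes tested. DESeq2 called *Lpl* and *Thbs1* among 135 genes in all.

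Cholesterol taken up through scavenger receptors is stored as esters, exported, or sensed by nuclear receptors. All 9 genes on the list for these steps were tested, and 6 were upregulated and 0 downregulated against each blood group. Of all genes tested, 13.1% were upregulated and 7.86% downregulated against stroke blood, and 9.75% and 3.67% against sham blood. *Plin2*, which coats lipid droplets, was at 1020, 1070 and 979 CPM in the brain and 239, 254 and 230 CPM in stroke blood, with a log2 fold change of 2.11 ± 0.14 (SE, adjusted p = 2.30e-05, edgeR). The export pump *Abca1* was at 48.8, 58.8 and 95.0 CPM in the brain and 4.80, 8.23 and 11.2 CPM in stroke blood, with 3.09 ± 0.36 (SE, adjusted p = 0.000341, edgeR). *Abcg1* was at 306, 490 and 463 CPM and 122, 114 and 141 CPM. *Soat1*, which esterifies cholesterol, did not pass, at 287, 350 and 284 CPM in the brain and 314, 296 and 255 CPM in stroke blood.

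Of the regulators, *Pparg* was at 41.6, 36.0 and 36.2 CPM in the brain and 13.9, 19.7 and 11.4 CPM in stroke blood, with a log2 fold change of 1.36 ± 0.24 (SE, adjusted p = 0.00295, edgeR). *Nr1h3*, the liver X receptor alpha gene, was at 21.0, 41.2 and 41.8 CPM and 9.94, 14.6 and 10.4 CPM, and its exons overlap *Gm13783*. Without sham blood replicate 3, the calls of *Pparg* and *Nr1h3* against sham blood were lost (adjusted p = 0.0591 and 0.0537). *Nr1h2* and *Spi1* did not pass. *Spi1* was at 672, 837 and 790 CPM in the brain and 747, 837 and 993 CPM in stroke blood, and overlapped in all 3 groups. Between the blood groups 0 of the 9 genes were DEGs with edgeR or DESeq2, and 3 had an unadjusted p below 0.05, beside 1581 of all 12664 genes tested.

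For each of the 7 receptors with enough counts, the 3 genes with the nearest profile over the 9 libraries were found among 8218 candidates. Likeness was the root mean square difference of log2(CPM + 1) after centring each gene on its mean. The nearest to *Cxcl16* were *Tgm2* (0.45), *Cebpb* (0.53) and *C3ar1* (0.60), beside a median of 2.53 over all candidates. The nearest to *Scarb1* were *Cyp4f16* (0.11), *Flna* (0.16) and *Abca7* (0.18), with a median of 0.55. *Cd68* had *Csad* (0.09), *Npc1* (0.11) and *Rabep1* (0.12) nearest, and *Olr1* had *Ppp1r14b* (0.22), *Cstb* (0.23) and *Cltb* (0.24). The nearest to *Lrp1* were *1110032A03Rik* (0.17), *Afdn* (0.19) and *Card9* (0.19). Those to *Msr1* were *Atad1* (0.10), *Cul5* (0.11) and *Nup54* (0.12), and those to *Scarf1* were *Alkbh3* (0.13), *Pop4* (0.14) and *H2-T22* (0.14). These are nearest profiles in 9 libraries of 3 groups and carry no test.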

How the data were processed

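RNA of sorted blood and brain cells was measured in 9 libraries made with the SMART-Seq HT kit, 3 per group. The authors worked in Chipster. Read quality was checked there with FastQC, HISAT2 aligned the reads to the GRCm38 genome, and HTSeq gave the raw counts per Ensembl gene that the authors deposited, 1 file per library. Versions, the annotation release and the strand setting are not given in the sources used here.

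From these counts, fold changes and p-values were computed with edgeR 4.0.16 in R 4.3.3, with TMM scaling, filterByExpr, the quasi-likelihood F test and Benjamini-Hochberg adjustment over all genes tested, 3 libraries against 3. DEGs had an adjusted p below 0.05 together with a log2 fold change beyond 1 in either direction. "Higher" or "lower" in a test without that fold means an adjusted p below 0.05. DESeq2 1.42.0, other scalings and filters, a single fit, a replicate block and leaving out each library were the alternatives. Scripts were tested on simulated data. Figures and promoter searches used Python 3.11.15 with pandas 2.3.3, numpy 2.4.6 and matplotlib 3.10.9.

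Symbols, lengths and positions came from GENCODE M21, which held 53706 of the 53801 gene identifiers, 52105 of them at the same coordinates, and all 136 list genes. Named genes are all genes of the lists (the 8 receptors, other scavenger receptors, LDL receptor family, ligands and partners, lipid handling and regulators), and the 3 nearest profiles of each receptor, except some genes that are not reported here; counts over a list cover the whole list. Marker genes are named for the sort. The receptors and lists were chosen with earlier results of these data known. Libraries held 18475118 to 22623578 counts. The floor of 3 counts, 0.125 to 0.176 CPM on the TMM scale, covers counting error only and not differences between animals.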

Additional observations from a re-analysis of the deposited data

How the results depend on the processing

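Of the log2 fold changes of the receptors under the alternatives, 282 kept sign and side of the threshold, 5 became DEGs, 1 lost its call and 6 changed sign. For the related genes reported these numbers were 1277, 11, 15 and 49. *Cxcl16* was a DEG in both brain comparisons throughout, between 5.08 and 5.37 against stroke blood with libraries left out. With 3 libraries a group, leaving out 1 leaves 2, so lost calls also follow from fewer samples. Other causes of the changes below were not tested. TMM assumes that most genes do not differ, and the median log2 fold change of all genes against stroke blood was 0.06 with TMM, 0.22 with library size only and -0.09 with upper quartile scaling. Each sham and stroke blood library is 1 mouse and each brain library a pool, so tissue and pooling cannot be told apart.

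Brain against stroke blood: 2 receptors were lower DEGs with upper quartile scaling, 2 with no fold threshold, and 0 (without stroke blood replicate 2) to 2 (without brain replicate 1) with a library left out. At an adjusted p below 0.01, 1793 genes were DEGs. *Scarb1* was at -1.10 with upper quartile scaling and -1.10 to -0.86 with a library left out, *Lrp1* at -1.05 and -1.10 to -0.77. *Scarf1* was at 0.082 with library size only and -0.28 to 0.083 with a library left out. Upper quartile scaling gave -0.034 for *Colec12*, -0.096 for *Lrp10* and -0.035 for *Soat1*. Library size only gave 0.13 for *Nr1h2* and 0.018 for *Spi1*. Leaving out a library gave -0.38 to 0.31 for *Colec12*, -0.72 to 0.036 for *Lrp5*, -0.057 to 0.14 for *Lrp10* and -0.21 to 0.078 for *Nr1h2*.

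Stroke against sham blood: 160 genes were DEGs with no filter on low counts, 135 with DESeq2, 0 at an adjusted p below 0.01, and 0 (without sham blood replicate 2) to 16 (without sham blood replicate 1) with a library left out. *Cd163* was at -0.029 with library size only, -0.020 with no filter and -0.0050 with DESeq2. Leaving out a library gave -0.075 to 0.13 for *Cd68*, -0.20 to 0.65 for *Mrc1*, -0.31 to 0.45 for *Cd163*, -0.38 to 0.36 for *Lrp5*, -0.14 to 0.29 for *Lrp6*, -0.88 to 0.087 for *Lrp12*, -0.11 to 0.44 for *Nr1h3* and -0.26 to 0.30 for *Abca1*.

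Brain against sham blood: 792 genes were DEGs at an adjusted p below 0.01, with 1 receptor higher. With a library left out there were 1146 (without sham blood replicate 3) to 1883 (without brain replicate 1) DEGs, and 1 (without brain replicate 2) to 2 receptors were higher. Library size only gave 0.081 for *Cd44* and 0.081 for *Sorl1*. Upper quartile scaling gave -0.022 for *Adam17*. *Spi1* was at -0.0029 with RLE scaling, -0.066 with upper quartile scaling and -0.0096 with no filter. Leaving out a library gave -0.063 to 0.28 for *Msr1*, 1.32 to 1.87 for *Olr1*, -0.028 to 0.22 for *Scarb2*, -0.14 to 0.21 for *Clec7a*, -0.14 to 0.12 for *Cd44*, -0.0084 to 0.15 for *Adam17* and -0.063 to 0.083 for *Spi1*.

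Same-numbered libraries are not given as pairs in the sources used here. Whether a brain pool held the mouse of a stroke blood library is not given either. Deviations of same-numbered libraries correlated at -0.06, 0.09 and -0.08 between brain and stroke blood, -0.0004, -0.03 and -0.03 between the blood groups, and 0.06, -0.01 and 0.05 between brain and sham blood, and not every library correlated best with its own number. With a replicate block, 1681 genes were upregulated and 953 downregulated against stroke blood, and 1150 and 421 against sham blood. Between the blood groups the block called *Serpinb10* no longer and 1 other gene, *S100a9* (-3.21, adjusted p = 0.00617), chosen after its values were seen. With the block *Abca1* was at -0.013 between the blood groups, and the adjusted p against sham blood was 0.0565 for *Cd68* and 0.0595 for *Cd163*.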

Other observations

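Marker lists of B cells, endothelium and neural cells are given here. B cell markers summed to 50.2, 43.9 and 85.5 CPM in the brain, 113, 65.9 and 80.0 CPM in stroke blood and 127, 238 and 227 CPM in sham blood. None of the 4 was a DEG against stroke blood, where 13.1% of all genes tested were upregulated and 7.86% downregulated. *Cd79a*, *Cd79b* and *Ms4a1* were downregulated against sham blood, beside 3.67% of all genes tested. Endothelial markers summed to at most 70.3 CPM in any library. Of the 3 tested, *Kdr* was upregulated against stroke and sham blood, beside 13.1% and 9.75% of all genes tested. *Vwf* was downregulated against stroke blood, beside 7.86%. Neural markers summed to 260, 150 and 160 CPM in the brain and 172 to 333 CPM in blood, with *Mbp* the most abundant in each library. *Mbp* held most of every sum, so the sums follow that gene, while *Ttr* had counts in the brain only. The cell source of the *Mbp* reads was not tested. *Slc1a2*, *Ttr* and *Kdr* passed the count filter because of the brain libraries, so their direction was set by it.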
